A study of Mus musculus with 8 samples.

Results

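Foxp3 binding sites were collected for 10 cytokine receptor genes of mouse regulatory T (Treg) cells, namely Il4ra, Il6ra, Il6st, Il10ra, Il12rb2, Il18r1, Il21r, Il27ra, Ifngr1 and Il1r2. A site belonged to a gene when its centre lay in the body of that protein-coding gene widened by 5 kb, and otherwise when an end of that gene was the nearest within 100 kb. By this rule 23 of the 5521 listed sites belonged to 8 of the 10 genes. Il12rb2 and Il27ra had 0 sites. The binding data came from CUT&Tag, in which an antibody brings a transposase to chromatin so that DNA around the bound protein is cut and tagged for sequencing. CD4+hCD2+GFP- Treg cells were sorted fresh from C57BL6/J lymph nodes and spleen. The WT groups had the genotype Foxp3WT-IRES-hCD2/Foxp3-IRES-GFP and the R397W groups the genotype Foxp3R397W-IRES-hCD2/Foxp3-IRES-GFP, so the GFP-tagged Foxp3 allele was carried by all animals and the sort kept cells that used the hCD2-tagged allele. R397W is a missense change in the forkhead domain, the DNA-binding part of Foxp3. Each genotype had 2 libraries made with an anti-Foxp3 antibody and 2 made with normal rabbit IgG as background, which gives 4 groups and 8 libraries. The sources used here give no ages for the mice. The labels also do not say whether replicates 1 and 2 came from separate mice, so p-values measure the spread between these libraries, which may be technical.

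Cytokine receptors tell a T cell which inflammatory signals surround it. Most of the receptors described here pair a chain that binds the cytokine with a shared signalling chain, and Janus kinases attached to their tails phosphorylate STAT transcription factors. The IL-18 receptor belongs to the IL-1 receptor family and signals through MyD88 and NF-kB instead. In Treg cells such receptors are known to adjust suppressive function and the choice between resting (central, cTreg) and effector (eTreg) states.

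The authors sorted the sites into common, cTreg-specific and eTreg-specific classes. Values are the deposited normalised read counts per site, and every site of the 8 genes spans 400 bp. Reads in all listed sites ranged from 111274 to 394196 per library. In both genotypes and with both antibodies replicate 2 had no reads at many more sites than replicate 1 (44.4% to 66.8% of all sites against 3.13% to 27.0%), while the median number of reads at a site that had any was 74 to 103 in replicate 2 and 17 to 47 in replicate 1. The same held for the 23 receptor sites, of which 0, 3, 7 and 5 lacked reads in the first libraries of WT Foxp3, R397W Foxp3, WT IgG and R397W IgG, and 11, 16, 18 and 14 in the second ones. A zero in replicate 2 allows up to 3 reads, or 1.40 to 1.93 normalised counts at a common site, by counting error alone. That limit takes reads as independent, which was not tested. With so many empty sites beside high counts, a zero in replicate 2 may hide a larger signal. CUT&Tag does not measure expression, and the listed positions are the same for all 8 libraries, so the label of the cells could not be checked here. As a description of the list, 7 of 8 Treg marker genes, 2 of 5 general T cell markers (Cd3d and Cd28), 0 of 5 B cell markers and 0 of 5 myeloid markers had a site, beside 12.6% of all 21900 protein-coding genes.

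The DNA just upstream of a pair of the genes is shown because they carried the sites described most fully, in Il6st next to the gene start and in Il18r1 inside the gene. The sequences are the 250 bases before the gene's start in RefSeq (GRCm38.p6), 5′ to 3′, with each CG dinucleotide in capitals. The Il6st window lies at chr13:112463820-112464069 on the plus strand, and the window of the most upstream Il18r1 start at chr1:40465302-40465551, also on the plus strand.
Il6st: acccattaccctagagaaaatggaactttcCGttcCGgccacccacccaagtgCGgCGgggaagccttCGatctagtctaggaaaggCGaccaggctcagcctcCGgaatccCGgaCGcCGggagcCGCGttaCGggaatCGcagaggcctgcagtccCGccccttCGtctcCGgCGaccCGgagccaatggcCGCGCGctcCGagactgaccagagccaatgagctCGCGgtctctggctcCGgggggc
Il18r1: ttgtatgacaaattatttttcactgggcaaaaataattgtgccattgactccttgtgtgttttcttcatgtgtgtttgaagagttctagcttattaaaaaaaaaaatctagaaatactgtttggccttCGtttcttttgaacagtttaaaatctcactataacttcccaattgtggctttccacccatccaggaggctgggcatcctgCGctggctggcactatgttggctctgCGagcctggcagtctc
The Il6st window held 26 CG dinucleotides and 66% G or C, and 9.59% of all promoter windows held as many CGs. Il6st site 2 ended 47 bp upstream of it. The Il18r1 window held 3 CGs and 40.8% G or C, as many or more CGs being present in 71.0% of windows, where the median was 6. The nearest Il18r1 site began 8143 bp downstream of it. Across the 10 windows of the 8 member genes found in the RefSeq table, the forkhead word TGTTTAC, searched on both strands, occurred in that of Il21r (at position -38 from the start) against 3.17% of all 32851 windows. The STAT word TTCNNNGAA occurred in windows of Il1r2, Il18r1 and Il12rb2, against 7.02% of all windows. The AP-1 word TGANTCA occurred in 0 of the 10, against 6.75%. These are letter matches in this stretch and say nothing of binding.

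Of the 23 receptor sites 16 were common (69.6%), 4 were cTreg-specific (17.4%) and 3 were eTreg-specific (13.0%). Over all sites with a gene the shares were 70.4%, 12.7% and 16.8%. The common class thus took nearly the same share of the receptor sites as of all sites. The cTreg-specific sites were 2 of Il6st, 1 of Il6ra and 1 of Il10ra, and the eTreg-specific ones were 1 each of Il6st, Il6ra and Il1r2. Il6st alone held 9 sites, a number reached by 37 of the 2760 genes with a site, whereas the median gene held 1. Il6ra and Il18r1 held 3 each, Il10ra, Ifngr1 and Il1r2 held 2 each, and Il4ra and Il21r held 1 each. Of the 23 sites 14 lay inside a gene body (60.9%, against 67.3% of all sites with a gene). Of the 9 outside, 5 had another protein-coding gene whose distance was within 5 kb of that to the receptor gene, and the label of those sites is uncertain to that extent.

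The 23 sites took 0.373% (95% Wilson interval 0.351 to 0.396) and 0.181% (0.168 to 0.195) of the listed reads in WT Foxp3 replicates 1 and 2, and 0.504% (0.464 to 0.548) and 0.164% (0.149 to 0.179) in R397W Foxp3. In WT IgG the shares were 0.260% (0.242 to 0.279) and 0.197% (0.182 to 0.214), and in IgG of R397W cells 0.222% (0.196 to 0.251) and 0.240% (0.222 to 0.260). The intervals cover counting error only. The group means were 0.277% ± 0.136 (SD, n = 2) for WT Foxp3, 0.334% ± 0.241 for R397W Foxp3, 0.229% ± 0.0442 for WT IgG and 0.231% ± 0.0131 for R397W IgG. The Foxp3 groups overlapped each other and both IgG groups, since the second Foxp3 library of each genotype lay below all 4 IgG libraries. By this share the receptor genes as a group did not stand apart from the other listed sites, in Foxp3 against IgG or in R397W against WT, beyond the spread between replicates. A gain or loss of equal size at all listed sites would leave the share unchanged. The share therefore cannot show whether the receptor sites exceeded IgG or differed between genotypes.

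**Figure D1:**
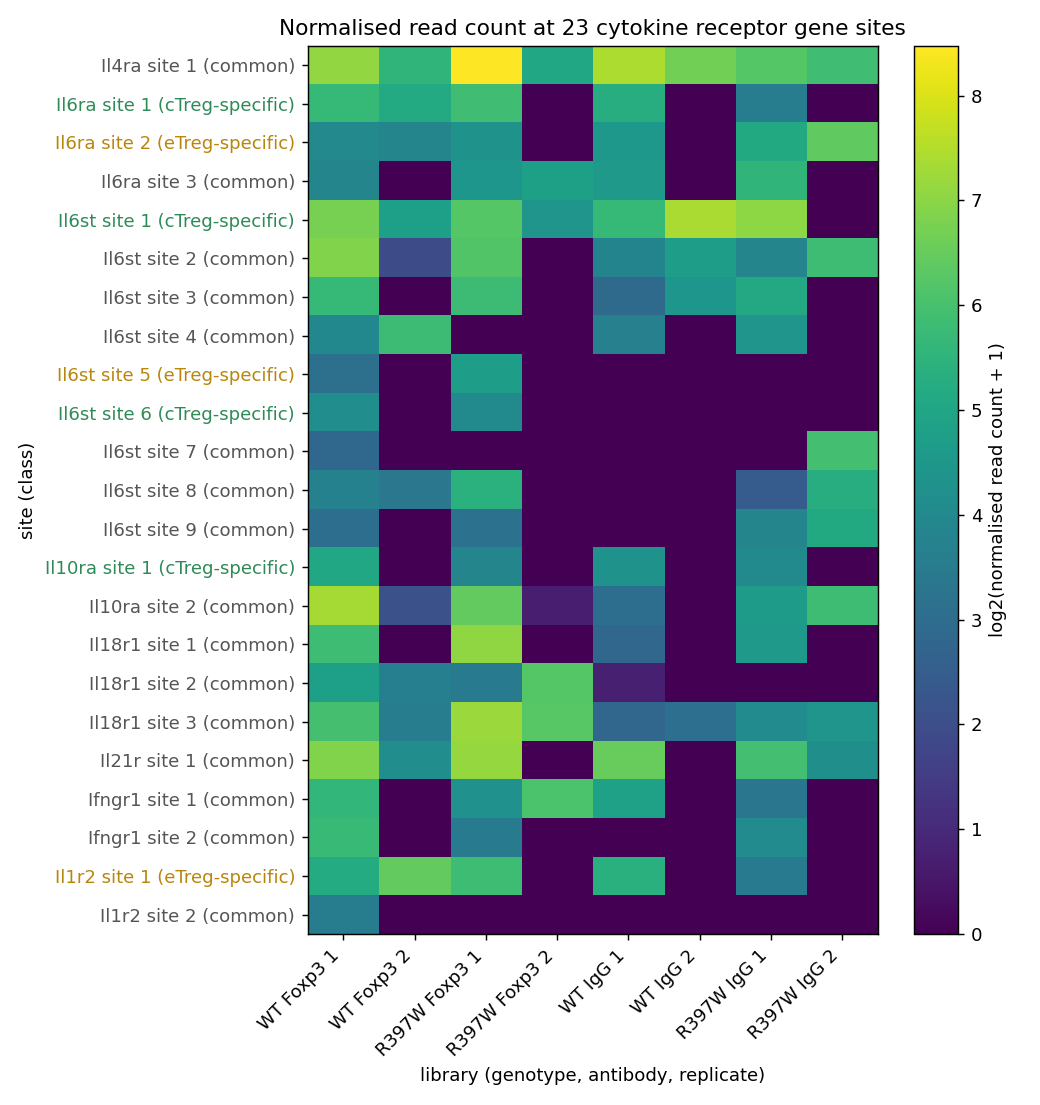
Heat map of log2(normalised read count + 1) at each of the 23 receptor sites (rows, label colour by class) in each of the 8 libraries (columns). The first Foxp3 libraries have reads at nearly all sites, and the second libraries have many empty cells. Sites 2 and 3 of Il18r1 have reads in all 4 Foxp3 columns, as do Il6st site 1, Il4ra site 1 and Il10ra site 2. These make up 21.7% of the receptor sites, against 33.5% of all sites. Il18r1 site 2 is near empty in IgG. At Il18r1 site 3 both R397W IgG libraries (15.8 and 20.4) exceed the second WT Foxp3 library (11.2).

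Il18r1 encodes the chain of the IL-18 receptor that binds IL-18, a cytokine that acts on Th1 cells and on tissue Treg cells. It had 3 common sites with centres within 6 kb of each other in the gene body. Site 3 (chr1:40479486-40479886, 14134 bp from the gene's 5′ end) had 61.9 and 11.2 normalised read counts in WT Foxp3, 147 and 76.0 in R397W Foxp3, 5.95 and 7.46 in IgG of WT cells and 15.8 and 20.4 in IgG of R397W cells. Both R397W Foxp3 libraries lay above both WT Foxp3 libraries, and within each genotype Foxp3 and IgG did not overlap. Site 2 (chr1:40475700-40476100) had 26.7 and 11.6 in WT Foxp3, 10.5 and 74.1 in R397W Foxp3, 0.661 and 0 in IgG of WT cells, and 0 in both R397W IgG libraries. In reads this was 22, 25, 4 and 115 in the Foxp3 libraries against 1 in all IgG libraries together, and it was the single receptor site at which all 4 Foxp3 libraries exceeded all 4 IgG libraries, a pattern found at 1.38% of all sites. The genotypes overlapped there. Site 1 (chr1:40473694-40474094) had 57 and 134 in the first WT and R397W Foxp3 libraries, 5.95 and 22.6 in the first WT and R397W IgG libraries, and 0 in all 4 second libraries.

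Over its 3 sites Il18r1 had 42.9 and 12.4 reads per 100000 listed reads in WT Foxp3, 99.8 and 82.8 in R397W Foxp3, 6.38 and 5.20 in IgG of WT cells, and 15.3 and 12.4 in IgG of R397W cells. The means were 27.7 ± 21.5 (SD, n = 2), 91.3 ± 11.96, 5.79 ± 0.833 and 13.8 ± 2.05. Foxp3 exceeded the IgG library of the same number 6.72-fold and 2.39-fold in WT and 6.53-fold and 6.70-fold in R397W. The R397W total lay above the WT total with no overlap in the Foxp3 libraries and, at a lower level, also in the IgG libraries, and the Foxp3-to-IgG ratios of the genotypes overlapped. Such a gap between R397W and WT Foxp3 totals was found for 9.46% of the 2760 genes, and a gap in IgG for 12.5%. The fitted log2 difference R397W minus WT in Foxp3 was 1.92 (SE 0.94). It had an unadjusted p of 0.0473 in limma, the only one under 0.05 among the 8 receptor genes, and an adjusted p of 1, so it did not pass the test, and the unadjusted p was 0.124 in edgeR and 0.119 in DESeq2. The fitted Foxp3 minus IgG differences were 1.84 (SE 1.78, adjusted p = 0.977 in limma) in WT and 2.64 (SE 1.78, adjusted p = 1 in limma) in R397W.

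**Figure D2:**
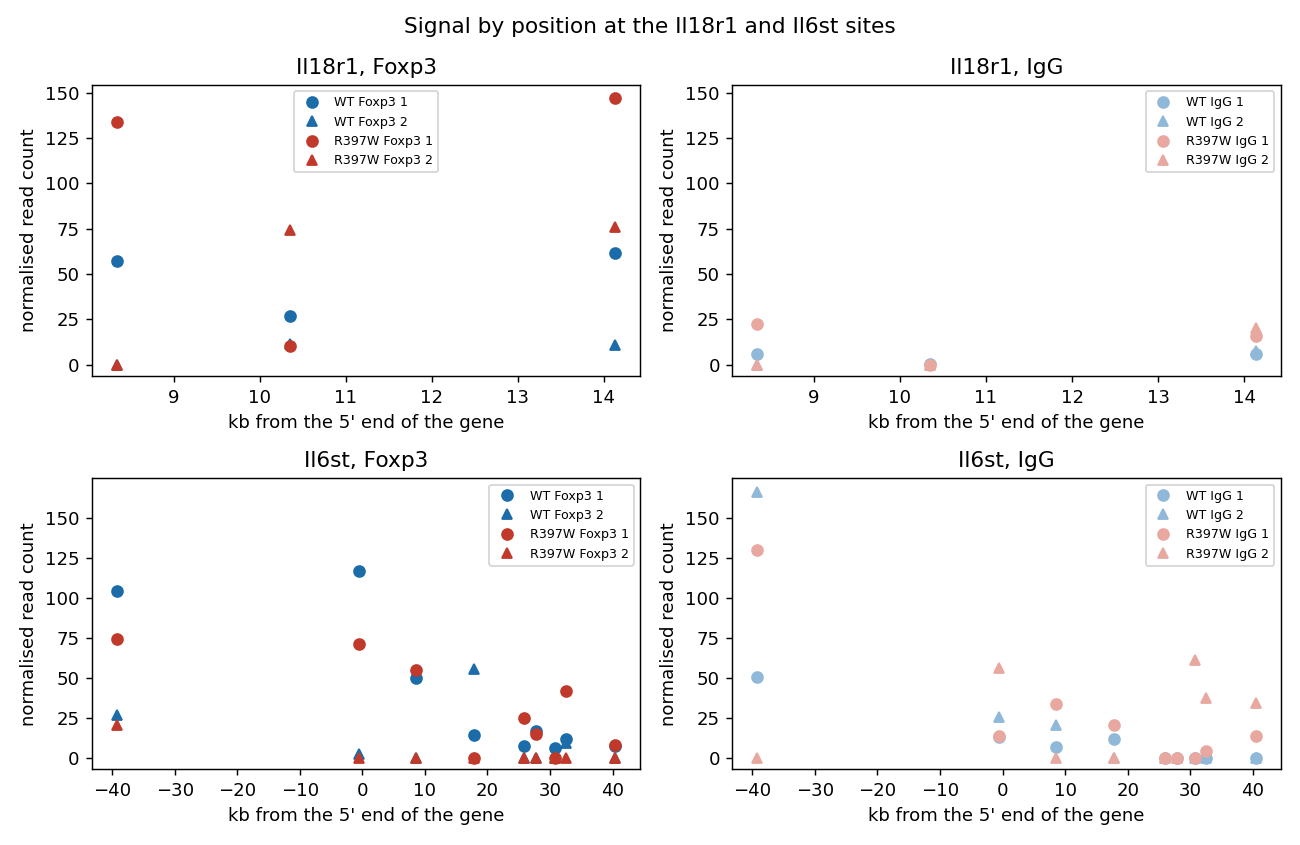
Normalised read count (y axis) against the distance of each site from the gene's 5′ end in kb (x axis) for Il18r1 and Il6st, with Foxp3 libraries on the left and IgG libraries on the right. The 3 Il18r1 sites lie 8.3 to 14.1 kb into the gene and are low in IgG, while the 9 Il6st sites lie at -39.2 kb (upstream) to 40.4 kb and reach 166 in IgG and 116 in Foxp3.

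Il6st encodes gp130, the signalling chain shared by the receptors for IL-6, IL-27 and related cytokines, and Il6ra encodes the chain that binds IL-6. Il6st site 1 (cTreg-specific, chr13:112424672-112425072) lay 39198 bp upstream of Il6st and 40867 bp from Ankrd55, so its gene is uncertain. It had 104 and 26.8 normalised read counts in WT Foxp3, 74.1 and 20.6 in R397W Foxp3, 50.6 and 166 in IgG of WT cells, and 129.7 and 0 in IgG of R397W cells. Its highest value was thus in an IgG library. The site at the gene start, site 2 (common, chr13:112463373-112463773, centre 497 bp upstream), had 116 and 2.79 in WT Foxp3, 70.9 and 0 in R397W Foxp3, 13.2 and 25.9 in IgG of WT cells, and 13.6 and 56.0 in IgG of R397W cells. The first Foxp3 library of each genotype was high there and the second lay below every IgG library.

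Within the Il6st gene, site 4 (common, chr13:112481738-112482138) had 14.6 and 55.4 in WT Foxp3 and 0 in both R397W Foxp3 libraries, with 11.9 and 0 in IgG of WT cells and 20.4 and 0 in IgG of R397W cells. It was the only receptor site at which R397W Foxp3 lay below WT Foxp3 with no overlap, a pattern found at 12.6% of all sites, and the fitted log2 difference was -4.89 (SE 3.26, adjusted p = 1 in limma). Since the first R397W Foxp3 library was the shallowest, its zero allows up to 7.88 normalised counts (3 reads) by counting error alone. A weak signal may thus have been missed there, or a larger one if reads were not independent. Site 8 (common, chr13:112496399-112496799) had 12.1 and 9.31 in WT Foxp3, 42.0 and 0 in R397W Foxp3, 0 in both WT IgG libraries, and 4.53 and 37.5 in IgG of R397W cells. WT Foxp3 lay above WT IgG there, and the R397W libraries overlapped. The other 5 sites inside the gene body had 6.06 to 49.7 in the first WT Foxp3 library and 0 in the second Foxp3 library of both genotypes, with 0 to 55.1 in the first R397W Foxp3 library. Sites 5 and 6 had no reads in any IgG library. At site 7, IgG of R397W cells reached 61.1 against a highest Foxp3 value of 6.06, and at site 9 it was 13.6 and 34.4 against a highest Foxp3 value of 7.88. IgG at site 3 was 6.61 and 20.9 in WT cells and 34.0 and 0 in R397W cells, below the first Foxp3 libraries. Over its 9 sites Il6st had 115 and 50.0 reads per 100000 in WT Foxp3, 119 and 10.3 in R397W Foxp3, 35.9 and 122 in IgG of WT cells, and 88.0 and 115 in IgG of R397W cells. All 4 groups overlapped, and the fitted R397W minus WT difference was -1.07 on the log2 scale (SE 0.96, adjusted p = 1 in limma).

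Il6ra site 1 (cTreg-specific, chr3:89864103-89864503) lay 5021 bp from Il6ra and 5457 bp from She, so that either may be its gene. It had 50.5 and 35.1 in WT Foxp3, 57.3 and 0 in R397W Foxp3, 37.7 and 0 in IgG of WT cells, and 10.8 and 0 in IgG of R397W cells. Il6ra site 3 (common, inside the gene, chr3:89887593-89887993) had 13.3 and 0 in WT Foxp3, 21.0 and 27.1 in R397W Foxp3, 23.1 and 0 in IgG of WT cells and 45.3 and 0 in IgG of R397W cells. R397W Foxp3 lay above WT Foxp3 at site 3, but the highest value was from IgG. Over the 3 Il6ra sites the totals were 31.5 and 26.1 reads per 100000 in WT Foxp3, 45.8 and 14.9 in R397W Foxp3, 38.3 and 0 in IgG of WT cells, and 35.0 and 33.6 in IgG of R397W cells. The R397W minus WT difference in Foxp3 was -0.12 on the log2 scale (SE 1.21, adjusted p = 1 in limma).

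Il4ra encodes a chain of the receptors for IL-4 and IL-13, and Il21r encodes the chain that binds IL-21. The receptors for IL-4 and IL-21 use the common gamma chain as partner. Il4ra and Il21r are neighbours on chromosome 7. Il4ra site 1 (common, chr7:125588723-125589123) lay 9449 bp beyond the 3′ end of Il4ra and 14329 bp from Il21r, so its gene is uncertain. It had 137 and 45.6 normalised read counts in WT Foxp3, 354 and 32.9 in R397W Foxp3, 171 and 100.02 in IgG of WT cells and 74.7 and 57.3 in IgG of R397W cells. WT IgG lay above R397W IgG, and in WT each IgG library exceeded the Foxp3 library of the same number. As reads per 100000, Foxp3 was 0.466 and 0.356 of IgG in WT and 4.09 and 0.521 in R397W, so the first R397W pair stood apart. Il21r site 1 (common, chr7:125607330-125607730, 4278 bp into the gene) had 115 and 16.8 in WT Foxp3, 139 and 0 in R397W Foxp3, 89.9 and 0 in IgG of WT cells, and 61.1 and 17.8 in IgG of R397W cells. Each first library was high whichever antibody was used. The fitted R397W minus WT differences of the gene totals were 0.56 on the log2 scale for Il4ra (SE 1.04) and -1.43 for Il21r (SE 2.43), each with an adjusted p of 1 in limma.

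Il10ra encodes the chain that binds IL-10, which signals through STAT3. Its site 2 (common, chr9:45291825-45292225) lay 22876 bp from Il10ra and 26963 bp from Tmprss13, so its gene is uncertain. It had 160.1 and 3.26 in WT Foxp3, 86.6 and 0.644 in R397W Foxp3, 7.27 and 0 in IgG of WT cells, and 24.9 and 56.0 in IgG of R397W cells. Foxp3 exceeded IgG of the same number in both WT pairs and in the first R397W pair, but the second R397W pair was 1 Foxp3 read against 88 IgG reads. Il10ra site 1 (cTreg-specific, inside the gene) had 32.8 and 0 in WT Foxp3, 13.5 and 0 in R397W Foxp3, 18.9 and 0 in IgG of WT cells and 15.1 and 0 in IgG of R397W cells. The first R397W libraries were thus close there, with 8 Foxp3 reads and 7 IgG reads, and their order differed between reads and normalised counts. The gene totals were 61.1 and 1.78 reads per 100000 in WT Foxp3, 36.8 and 0.356 in R397W Foxp3, 11.1 and 0 in IgG of WT cells and 16.2 and 34.0 in IgG of R397W cells, and the R397W minus WT difference in Foxp3 was -0.87 on the log2 scale (SE 2.67, adjusted p = 1 in limma).

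Ifngr1 encodes the chain of the receptor that binds interferon-gamma. Both of its sites were common and lay far upstream, 97409 bp and 61637 bp from the gene, so they are Ifngr1 sites only by nearness. Site 2 (chr10:19530112-19530512) had 52.2 and 0 in WT Foxp3, 10.5 and 0 in R397W Foxp3, 0 in both WT IgG libraries, and 15.8 and 0 in IgG of R397W cells. Site 1 had 47.3 and 0 in WT Foxp3, 18.4 and 67.0 in R397W Foxp3, 27.8 and 0 in IgG of WT cells, and 9.05 and 0 in IgG of R397W cells. R397W Foxp3 lay above R397W IgG at site 1, whereas the WT groups overlapped. The gene totals were 29.3 and 0 reads per 100000 in WT Foxp3, 9.89 and 37.0 in R397W Foxp3, 14.1 and 0 in IgG of WT cells, and 9.88 and 0 in IgG of R397W cells.

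Il1r2 encodes a decoy receptor that binds IL-1 without signalling and is known as a gene of activated, tissue-resident Treg cells. Its site 1 (eTreg-specific, chr1:40055810-40056210) lay 28682 bp upstream of Il1r2 and 29700 bp from Map4k4, so its gene is uncertain. It had 36.4 and 86.0 in WT Foxp3, 56.6 and 0 in R397W Foxp3, 40.9 and 0 in IgG of WT cells, and 9.92 and 0 in IgG of R397W cells. The second WT Foxp3 library gave the highest value and was the only second library with reads there. Site 2 (common, 4928 bp upstream) had 10.9 in the first WT Foxp3 library and 0 in the other 7. The gene totals were 18.2 and 56.8 reads per 100000 in WT Foxp3, 24.3 and 0 in R397W Foxp3, 21.8 and 0 in IgG of WT cells, and 3.59 and 0 in IgG of R397W cells, with an R397W minus WT difference in Foxp3 of -2.73 on the log2 scale (SE 2.22, adjusted p = 1 in limma).

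**Figure D3:**
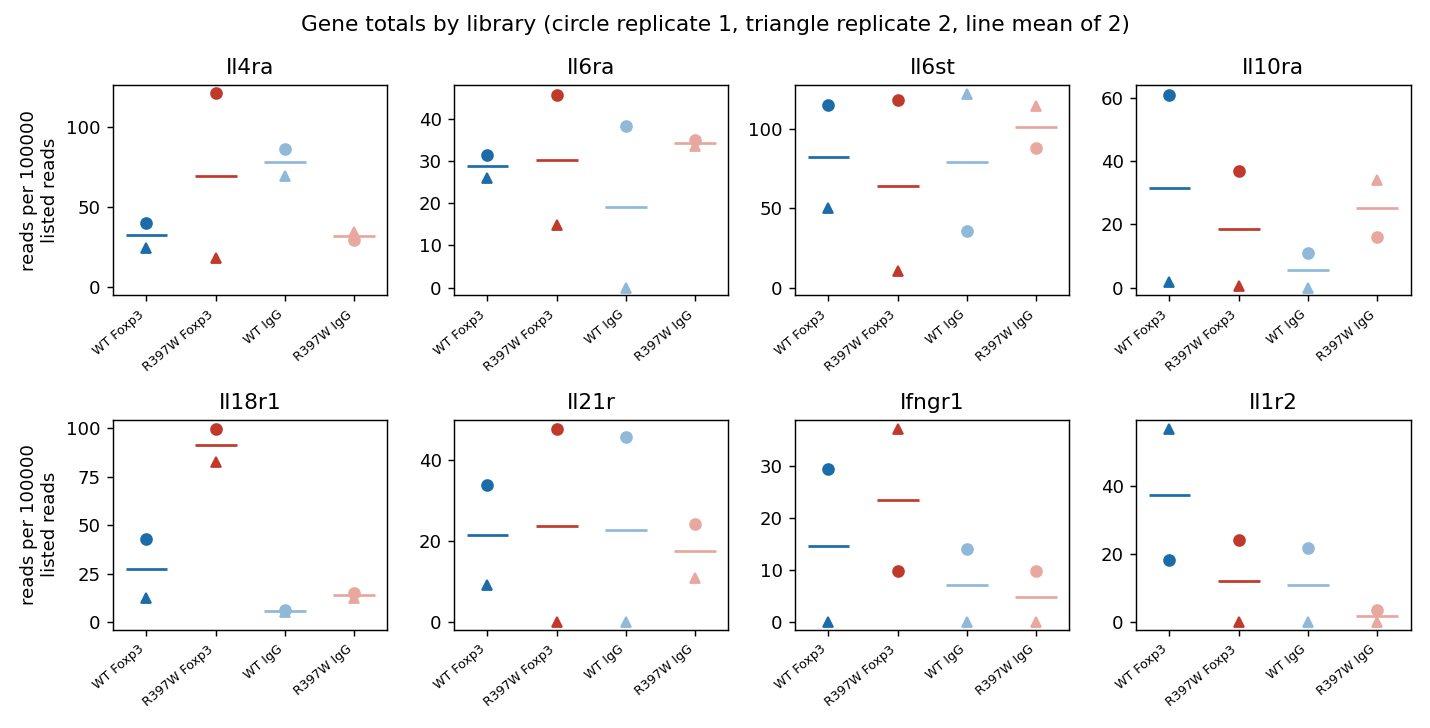
Reads at a gene's sites per 100000 listed reads (y axis) in each library for the 8 receptor genes with a site, by group (circle replicate 1, triangle replicate 2, line the mean of 2). Il18r1 is the gene whose R397W Foxp3 points (99.8 and 82.8) lie above all other points of that gene, while for Il6st and Il21r the 4 groups overlap.

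The question the design addresses most directly is whether the R397W change altered Foxp3 occupancy. In limma on log2(normalised read count + 1), 0 of 5521 sites (0%) had an adjusted p under 0.05 for R397W minus WT in the Foxp3 libraries, and edgeR and DESeq2 on the recovered reads likewise called 0. At an unadjusted p under 0.05 limma gave 3 sites higher in R397W (0.0543%) and 15 lower (0.272%), none of them a receptor site. Of the 23 receptor sites 9 had a fitted value above 0 and 14 below 0 (60.9% of the 23, against 60.4% of all sites below 0). Their median log2 difference was -0.61, beside -0.39 over all sites. R397W Foxp3 lay above WT Foxp3 with no overlap at 2 receptor sites (Il18r1 site 3 and Il6ra site 3), a pattern found at 6.43% of all sites. Over gene totals 0 of 2760 genes (0%) were called, with 11 higher (0.399%) and 23 lower at an unadjusted p under 0.05 in limma and 0 called by edgeR and DESeq2. There, 3 receptor genes had a fitted value above 0 (Il4ra, Il18r1 and Ifngr1) and 5 below (55.5% of all genes were below), with a median of -0.50 beside -0.17 over all genes. In edgeR and DESeq2 that split turned to 5 above and 3 below, with a median of 0.10 in both, and the median over the receptor sites was -0.16 in both. These counts changed when single libraries were left out. Without the second WT Foxp3 library, so that the lone WT library was assumed to vary like the R397W pair, limma called 643 sites and 167 genes. Called receptor sites were then 3 of 23 (13.0%, against 11.6% of all sites), namely Il6st sites 4 and 7 and Il1r2 site 2, at each of which both R397W Foxp3 libraries were at 0. The median of the receptor sites was 1.23 without the first WT Foxp3 library, -2.30 without the second, -2.54 without the first R397W Foxp3 library and 1.62 without the second. The total of Il18r1 stayed higher in R397W in all 4 of these fits, from 1.07 to 2.77 on the log2 scale. Its genotypes did not overlap, so leaving out a single library could not turn the sign, and this adds no support.

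**Figure D4:**
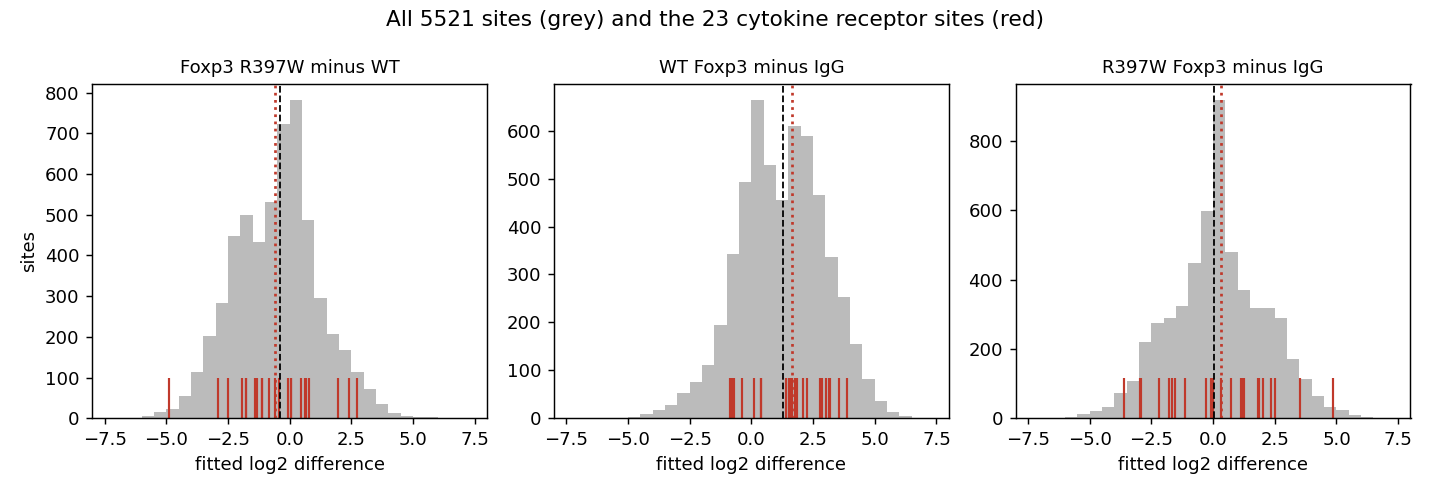
Histograms of the fitted log2 differences of all 5521 sites (grey, number of sites on the y axis) with the 23 receptor sites as red ticks, for R397W minus WT in Foxp3 and for Foxp3 minus IgG in each genotype. The medians of the receptor sites (dotted red) and of all sites (dashed black) lie close together, at -0.61 and -0.39 for R397W minus WT, and the receptor sites spread over most of the range of all sites.

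Against IgG, 4 of 5521 sites (0.0725%) were called in WT by limma and 0 by edgeR and DESeq2, none of them a receptor site, and 0 (0%) in R397W, where 50 sites were higher and 31 lower at an unadjusted p under 0.05 in limma and edgeR and DESeq2 also called 0. In WT 19 of the 23 receptor sites had a fitted value above IgG (74.3% of all sites did), with a median log2 difference of 1.65 beside 1.27 over all sites. In R397W 12 were above, 10 below and 1 at 0 (51.3% of all sites were above), with a median of 0.34 beside 0.05. The WT Foxp3 libraries exceeded the WT IgG libraries with no overlap at 4 receptor sites, namely Il18r1 sites 2 and 3 and Il6st sites 4 and 8, against 19.5% of all sites. In R397W this held for Il18r1 sites 2 and 3 and Ifngr1 site 1, against 10.4% of all sites. Foxp3 exceeded the IgG library of the same number in both WT pairs at 7 receptor sites (31% of all sites), in both R397W pairs at 3 (16% of all sites) and in all 4 pairs at Il18r1 sites 2 and 3 (6.29% of all sites). The largest fitted differences in WT were 3.86 at Il18r1 site 2 (SE 3.14), 3.54 at Il6st site 8 (SE 3.21) and 3.19 at Il10ra site 2 (SE 3.10), each with an adjusted p of 0.991 in limma. Over gene totals limma, edgeR and DESeq2 called 0 of 2760 genes (0%) against IgG in either genotype, with 83 higher and 13 lower in WT and 27 higher and 23 lower in R397W at an unadjusted p under 0.05 in limma. The difference between the genotypes in Foxp3 minus IgG was tested as an interaction, with 0 of 5521 sites (0%) called by limma, edgeR and DESeq2 and 15 higher and 76 lower at an unadjusted p under 0.05 in limma. At the receptor sites 8 of these interaction values were above 0 and 15 below (65.7% of all sites were below), with a median of -1.64 beside -1.02 over all sites. Left-out libraries moved these counts as well. The sites called in WT numbered 34 without the first WT Foxp3 library, 189 (3.42%) without the second, of which Il1r2 site 2 was the only receptor site, 29 without the first WT IgG library and 0 without any of the other 5. The interaction was called at 182 sites without the second WT Foxp3 library.

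The IgG libraries were also compared between genotypes. R397W IgG lay above WT IgG with no overlap at 5 of the 23 receptor sites (Il18r1 site 3, Il6st sites 8 and 9, Il10ra site 2 and Il6ra site 2), against 11.3% of all sites, and below at the Il4ra site, against 5.51%. In limma 2 of 5521 sites (0.0362%) were called for R397W minus WT in IgG, none of them a receptor site. edgeR and DESeq2 called 0. Over all sites 56.7% had a fitted value above 0 in limma and 34.8% below, with a median log2 difference of 0.33. That median was -0.11 without the second WT IgG library. Calls at single sites cannot decide on a general difference in background between the genotypes, which was not tested. The part of this background in the Foxp3 values was not tested.

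Other genes of the pathway were taken from lists. Of 34 other cytokine receptor genes 8 had a site, 17 sites in all, of which 13 were common, 3 cTreg-specific and 1 eTreg-specific. None was called for R397W minus WT, 3 sites having a fitted value above 0 and 14 below. Of all sites 60.4% were below 0, and 35.2% without the first WT Foxp3 library. The same shares stand beside the counts of the lists that follow. Il2ra, the IL-2 receptor alpha chain that defines Treg cells, had 7 of these sites and 257 and 340.2 reads per 100000 in WT Foxp3, 165 and 267 in R397W Foxp3, 138 and 168 in IgG of WT cells and 172 and 181 in IgG of R397W cells. Its WT Foxp3 libraries lay above WT IgG, a pattern found for 16% of the 2760 genes, and R397W Foxp3 overlapped R397W IgG. WT and R397W Foxp3 overlapped each other as well. Il2ra was not called for WT Foxp3 minus IgG (adjusted p = 0.977 in limma). Of 26 genes of JAK-STAT signalling and its inhibitors 9 had a site, 38 sites in all (29 common, 3 cTreg-specific, 6 eTreg-specific), with 15 fitted values above 0 and 23 below for R397W minus WT and 0 called. Of 6 genes of the MyD88 pathway, which serves the IL-18 receptor, 2 had a site (Irak2 and Irak3), 3 sites in all (1 common, 2 eTreg-specific), with 3 fitted values below 0 and 0 called. Jak1 and Jak2, kinases attached to receptor tails, had 11 and 9 sites, and Stat4, a factor activated by IL-12, had 6. Jak1 had 258 and 53.8 reads per 100000 in WT Foxp3, 244 and 122 in R397W Foxp3, 100.4 and 46.8 in IgG of WT cells and 224 and 128 in IgG of R397W cells. Jak2 had 109 and 32.7 in WT Foxp3, 98.9 and 176 in R397W Foxp3, 121 and 97.1 in IgG of WT cells and 62.0 and 27.8 in IgG of R397W cells. Stat4 had 102 and 39.6 in WT Foxp3, 98.9 and 0 in R397W Foxp3, 65.8 and 0 in IgG of WT cells and 76.3 and 29.8 in IgG of R397W cells. The Foxp3 values of each of these genes overlapped between genotypes, and those of Jak1 and Stat4 overlapped IgG in both. At Jak2 each WT IgG library exceeded the WT Foxp3 library of the same number. In R397W the Jak2 order was the opposite, Foxp3 lying above IgG with no overlap, a pattern found for 11.3% of the 2760 genes. Of 13 genes for cytokines that bind the receptors, 4 had a site (Il10, Il12a, Il21 and Ifng), 8 sites in all, with 2 fitted values above 0 and 6 below and 0 called.

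The library pattern of the summed receptor sites was compared with that of the other genes. Among 520 genes with at least 3 sites, the highest Pearson correlations over the 8 libraries were those of Brox (0.957, 4 sites), Cd44 (0.930, 5 sites) and Cabcoco1 (0.909, 3 sites). Brox, for example, had 12.2 and 0 reads per 100000 in WT Foxp3 and 30.6 and 0 in R397W Foxp3. Its IgG values were 1.68 and 0 in WT cells and 0.898 and 0 in R397W cells. The genes share their libraries, and the correlations are a description.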

How the data were processed

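CUT&Tag with anti-Foxp3 or IgG was read from 3 deposited tables, 1 per site class. They hold a normalised signal per site and library, described by the authors as spike-in normalised. Among tools, Bowtie2 2.5.2 and DiffBind 3.12.0 appear in the submitters' processing notes, with the genome builds mm10 and dm6 and no word on their use. Coordinates are printed as deposited and taken to be mm10. The sources used here do not give how sites were called or whether duplicates were removed.

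Each table has its own scale. Every value was a whole number of times the smallest value above 0 in its library and table (tolerance 0.01), and that smallest value was taken as 1 read. In 7 of the 24 library columns fewer than 100 values lay within 20 times the smallest one, so the recovery rests on fewer low values there. Read counts, gene totals and floors depend on it. Gene totals are these reads over a gene's sites per 100000 listed reads and do not use the deposited scaling. Gene positions came from RefSeq (GRCm38.p6).

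Differences were tested by limma 3.58.1 (R 4.3.3) with two-sided trended empirical Bayes statistics on log2(value + 1), a scale that understates changes at weak sites. Adjusted p-values are Benjamini-Hochberg over all 5521 sites or 2760 genes, with a threshold of 0.05 and every site kept. R397W minus WT used the 4 Foxp3 libraries, and comparisons with IgG used all 8. The limma fit of R397W minus WT was also run on simulated reads, and its outcome is not given here. The results were recomputed with a pseudocount of 0.5 or 5, the lowest 25% left out, equal totals, TMM or DESeq2 size factors, edgeR 4.0.16 (quasi-likelihood), DESeq2 1.42.0, a replicate block, a 10 kb limit, and each library left out.

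Genes and lists were chosen with earlier results of these data known. Sites given in full are each gene's highest by WT Foxp3 mean, those with reads in at least 2 Foxp3 libraries whose genotypes did not overlap in Foxp3, and the 3 with the largest WT Foxp3 minus IgG difference. Pathway genes named are the 4 with the most sites. The MyD88 pathway genes stood in the same list as those of JAK-STAT signalling and were separated after their values were seen. Il6st site 2, Il10ra site 1, Il18r1 site 1, Ifngr1 site 1 and Il1r2 site 2 were added after their values were seen.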

Additional observations from a re-analysis of the deposited data

How the results depend on the processing

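Sites called for WT Foxp3 minus IgG went from 4 to 0 with a pseudocount of 5, equal totals, edgeR, DESeq2 or a replicate block. Gene totals called in that comparison went from 0 to 3 with a pseudocount of 0.5. Sites called for R397W minus WT in IgG went from 2 to 0 with a pseudocount of 5, equal totals, edgeR or DESeq2, and to 1 with a replicate block. With a 10 kb limit for genes the mean share of reads at receptor sites was 0.173% in WT and 0.258% in R397W Foxp3 libraries, and 0.154% and 0.175% in the IgG libraries. Under edgeR and DESeq2 the R397W minus WT difference turned positive at Il6st site 8 (0.95 and 0.96) and Il21r site 1 (0.069 and 0.070), and in the totals of Il6ra (0.072 and 0.071) and Il21r (0.14 and 0.14). The causes were not tested.

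With each library left out in turn, calls for R397W minus WT in Foxp3 ranged from 0 to 643 sites and 0 to 167 genes, and the receptor medians from -2.54 to 1.62 over sites and from -1.83 to 1.18 over genes. For WT Foxp3 minus IgG the ranges were 0 to 189 sites and 0 to 63 genes, with medians from 0 to 3.05 and from -0.14 to 3.09. For R397W Foxp3 minus IgG they were 0 to 0 sites and 0 to 7 genes, with medians from -2.01 to 2.04 and from -1.12 to 1.61. The interaction gave 0 to 182 sites with medians from -3.81 to 1.11, and R397W minus WT in IgG gave 0 to 15 sites with medians from -0.36 to 1.78. The R397W minus WT difference in Foxp3 changed sign at Il6st site 1 (-1.39 to 0.53), Il6ra site 1 (-5.43 to 0.44), Il18r1 site 2 (-0.70 to 2.01), Ifngr1 site 2 (-3.97 to 1.76), Il6st site 8 (-3.54 to 1.89), Il4ra site 1 (-1.24 to 2.15), Il21r site 1 (-5.51 to 1.62), Il10ra site 2 (-3.99 to 1.74) and Il1r2 site 1 (-5.83 to 0.014). It did so too in the totals of Il4ra (-0.77 to 1.90), Il6ra (-0.90 to 0.66), Il6st (-2.77 to 0.63), Il10ra (-3.28 to 1.53), Il21r (-4.23 to 1.37) and Ifngr1 (-0.58 to 4.35). Il18r1 site 3 (0.76 to 3.13), Il6ra site 3 (0.79 to 4.63) and Il6st site 4 (-5.82 to -3.96) kept their sign, as did the totals of Il18r1 (1.07 to 2.77) and Il1r2 (-5.06 to -0.40). At these sites and in the Il18r1 total the genotypes did not overlap, so leaving out a single library could not turn the sign.

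Within a genotype the same-numbered Foxp3 and IgG libraries share a sample name, which may mean shared cells, though the labels do not say so. Between genotypes libraries share only a replicate number. The main comparisons with IgG did not pair the libraries. The correlations of same-numbered deviations were 0.0375 for WT Foxp3 with IgG and 0.135 for R397W Foxp3 with IgG. They were 0.167 for Foxp3 of both genotypes and 0.0873 for IgG of both. With the number as a replicate block 0 sites and 0 genes were called for R397W minus WT in Foxp3, as without it. With 2 libraries a group, and no reads at many sites in the second ones, absent reads and absent binding cannot be told apart at the receptor sites.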
